A study of Homo sapiens with 16 samples.

Results

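Replication-dependent histone genes encode the core histones H2A, H2B, H3 and H4 and the linker histone H1 that are made during S phase to package newly copied DNA. They were chosen by symbol, with current names of the forms H1-1 to H1-6, H2AC, H2BC, H3C and H4C or older HIST names, and pseudogenes were left out. The rule found 35 members among the 34618 gene IDs of the deposited count table, 33 by their current symbol and 2 (H3-4 and HIST2H2AA3) by an older one. A further 36 current symbols of these forms had no match in the table by their current gene ID and were not analysed here. Some may stand in it under older IDs that could not be named. Within the chromosome 6 span of the members lie 33 unnamed IDs, 30 of them under 800 bases of exon length, with 687 counts in all. Whether these are histone genes was not checked. Of the members, 23 lie on chromosome 6, 11 on chromosome 1 and 1 on chromosome 12.

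The messages of these genes normally end in a short RNA hairpin, the stem-loop, in place of a poly(A) tail. The stem-loop binding protein SLBP and the U7 particle, with its LSM10 and LSM11 subunits, direct the cut just after this hairpin. NPAT, a substrate of cyclin E and CDK2, drives transcription in S phase. Some members are known to give polyadenylated forms as well, from a poly(A) signal further downstream, above all in cells that leave the cycle. A library selected for polyadenylated RNA keeps those forms and loses most of the others. The values below therefore describe RNA that came through this selection, and not the total histone message. Whether the counted reads of a member came from forms with a poly(A) tail was not tested.

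The RNA came from KG1A and U937, cell lines of human acute myeloid leukaemia per the labels. KG1A is immature and carries the progenitor marker CD34, and U937 resembles promonocytes. The 4 groups were KG1A with NEL, KG1A with DMSO, U937 with NEL and U937 with DMSO, with 4 libraries each and 16 in all. NEL was given at 10 µM and DMSO was its vehicle, and the medium of every group was RPMI with dialyzed serum. Only knowledge of the study, and not the labels, identifies NEL as nelarabine, a nucleoside analogue, and the time of treatment is not in the labels either. Whether separate cultures stand behind the libraries is not stated, so p-values speak only of the spread between libraries, which may be technical. Each line is a single model, and in bulk RNA fewer cells of a kind and less RNA per cell cannot be told apart.

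Total counts ran from 10641567 to 11046699 per library in KG1A with NEL, 10900129 to 11049006 in KG1A with DMSO, 11157449 to 11403031 in U937 with NEL and 11524192 to 11777684 in U937 with DMSO. A count of 0 in one library allows up to 3 counts, or 0.255 to 0.282 CPM (counts scaled to a common library total with TMM factors), for counting error only. Within every group the odd-numbered libraries were more like each other than like the even-numbered ones. The labels name no batch, so values from either set alone are given beside some results. The line labels were checked against defining markers. CD34 averaged 973 CPM in KG1A with NEL and 888 CPM in KG1A with DMSO, against 0.838 CPM in U937 with NEL and 0.333 CPM in U937 with DMSO. ELANE averaged 213 CPM in U937 with NEL and 412 CPM in U937 with DMSO, and at most 0.112 CPM in either KG1A group. MPO, also listed as a U937 marker, was at most 0.494 CPM in any group. Of the markers of other cells, HBB had no count in any library and EPCAM at most 1, CD3E reached 36.9 CPM in KG1A with NEL, and COL1A1 reached 6.48 CPM in U937 with NEL. The part of CD3E and COL1A1 in the results was not tested.

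The stem-loop itself was found in the reference transcripts of 18 of the 35 members. GENCODE 29 transcripts (GRCh38) were searched on their sense strand for a hairpin of 16 bases that reads GG, any 3 bases, TTT, any 2 bases, A, any 3 bases and CC, with all 6 stem positions paired. The motif was present in 0.412% of 19649 other protein-coding genes. The 36 histone symbols without a match in the deposited table were not left out of these other genes, so the share is not free of histone genes. The sequences shown are those of members with values described below, with 5 bases on either side. Capitals mark the 16 bases of stem and loop, read 5′ to 3′ as DNA letters on the strand of the gene.
H2BC21: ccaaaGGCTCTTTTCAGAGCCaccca
H2AC6: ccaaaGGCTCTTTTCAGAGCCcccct
H2AC25: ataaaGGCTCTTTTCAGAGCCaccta
H2BC13: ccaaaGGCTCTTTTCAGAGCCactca
H2BC5: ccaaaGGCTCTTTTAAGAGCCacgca
H2BC4: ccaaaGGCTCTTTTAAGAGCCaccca
H2AC11: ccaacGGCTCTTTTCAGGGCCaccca
H4C8: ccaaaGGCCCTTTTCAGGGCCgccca
Only 4 distinct hairpins occurred among the 18 members. The form seen in H2BC21, H2AC6, H2AC25 and H2BC13 was shared by 11 members, that of H4C8 by 3 members and that of H2BC4 and H2BC5 by 3 members, while that of H2AC11 occurred once. No match was found in the transcripts of H2BC12, H1-2, H4C3, H2AC20 and H2BC11, which says only that these letters are not in those transcript models.

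What followed the hairpin differed far more than the hairpin. The annotated transcript went on for 1729 bases past it in H2BC21, 1761 in H2AC11, up to 1655 in H4C8 and up to 1128 in H2AC6, whereas it ended 40 bases past it in H2BC13 and 39 in H2BC5 and H2AC13. In H2AC25 the reference transcript of 895 bases ran 390 bases past the hairpin, but the exon length in the deposited table was 496 bases, so reads further downstream may not have been counted for this gene. Members were split for description at an exon length of 800 bases in the deposited table, a value chosen with the data in view and therefore not tested. H2BC12, at 820 bases, lay just inside the longer class and H1-5, at 790 bases, just outside it. Of the 11 members of the longer class that hold the hairpin, 10 had a transcript with over 100 bases after it, as did 2 of the 7 others.

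Few reads fell on these genes. They took 3656 counts over all 16 libraries, between 0.00128% and 0.00292% of a library's counts. A count was present for 26 members, 9 had none, and 10 had a count in every library. At least 10 counts in some library were reached by 13 members, and another 13 never went beyond 9. Per library, 16 to 19 members had a count in KG1A with NEL, 18 to 21 in KG1A with DMSO, 15 to 18 in U937 with NEL and 19 to 22 in U937 with DMSO.

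Those counts were concentrated on a handful of genes. H2BC12 alone held 31.6% of them, and the 6 highest members 70.9%. By family, H2B genes held 60.1%, H2A genes 21.5%, H1 genes 9.57%, H4 genes 7.69% and H3 genes 1.15%, and no H3 member reached 10 counts in a library. The 15 members with an exon length of 800 bases or more held 74.1% of the counts. Their lengths raise this share by themselves, since a longer exon yields more reads at the same level. All these shares are of the members' counts and leave out the unnamed IDs of the chromosome 6 span, most of them short.

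**Figure D1:**
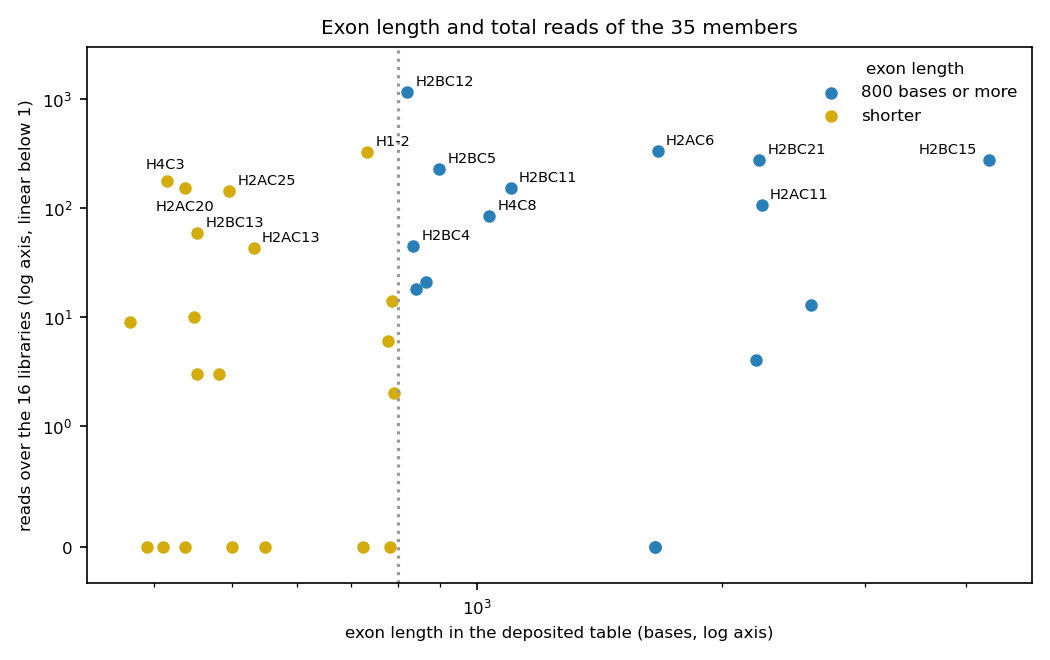
Exon length of each member in the deposited table (bases, log axis) against its reads summed over the 16 libraries (log axis, linear below 1), with the dotted line at 800 bases. The 15 longer members (blue) held 74.1% of the reads, H2BC12 at 820 bases is the highest point, and the 9 members without a read lie on the bottom row, where the points of H3C14 and H3C15 coincide.

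Per length, the level of H2BC12 averaged 5.90 RPKM (reads scaled to exon length and library total) in KG1A with NEL, 8.79 RPKM in KG1A with DMSO, 12.7 RPKM in U937 with NEL and 4.24 RPKM in U937 with DMSO. The median of the 16169 tested genes lay at 5.44 RPKM in KG1A with NEL, 5.12 RPKM in KG1A with DMSO, 5.18 RPKM in U937 with NEL and 4.77 RPKM in U937 with DMSO. H2BC12 thus lay above the median gene in every group but U937 with DMSO. H4C3, an H4 gene, lay below the median gene in all 4 groups, at 3.00 RPKM in KG1A with NEL, 2.47 RPKM in KG1A with DMSO, 0.691 RPKM in U937 with NEL and 3.25 RPKM in U937 with DMSO. H1-2, the linker histone gene with the most counts here, also lay below it, at 1.61 RPKM in KG1A with NEL, 4.14 RPKM in KG1A with DMSO, 1.93 RPKM in U937 with NEL and 2.35 RPKM in U937 with DMSO.

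In KG1A the question was how NEL moved the histone reads of these libraries relative to DMSO, and every called member was lower. The 35 members together had 15.5, 15.9, 16.8 and 18.03 CPM in the NEL libraries, against 30.0, 26.0, 24.2 and 26.2 CPM in the DMSO libraries. These sums did not overlap, and the log2 ratio of their means was -0.68. In the edgeR quasi-likelihood test 9 members passed the filter for low counts, of which 6 fell, none rose and 3 were not called. There was also no rise, 0 of 9, at an unadjusted p under 0.05 or in the DESeq2 and limma-voom tests. Over all 14250 genes tested, 47.2% were called, 23.6% higher and 23.6% lower. Of the 9 members tested, H2AC25 and H2AC11 passed the filter only through their DMSO libraries, so their direction was partly set by passing. The groups of 6 of the 9 did not overlap, against 42.2% of all genes. Both length classes stood lower with NEL in this line. The 15 longer members summed to 13.2 ± 1.16 CPM with NEL and 19.4 ± 1.71 CPM with DMSO, and the other 20 to 3.31 ± 0.26 CPM with NEL and 7.20 ± 1.02 CPM with DMSO (SD, n = 4 each).

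H2AC25, an H2A gene of the small cluster on chromosome 1 (ENSG00000181218, GRCh37, 228645065 to 228645560, minus strand), fell most. It had 2, 6, 3 and 4 counts with NEL, against 21, 17, 18 and 23 with DMSO, and the groups were well apart. Its log2 fold change was -2.41 ± 0.31 (SE, n = 4 per group, edgeR adjusted p = 1.70e-05), and it was -2.95 with odd-numbered libraries alone and -2.02 with even-numbered ones.

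H2BC21, an H2B gene of the larger cluster on chromosome 1 (ENSG00000184678, 149856010 to 149858232, minus strand), had 9, 18, 16 and 10 counts with NEL, against 38, 38, 35 and 35 with DMSO. No NEL library came near a DMSO library. The log2 fold change was -1.50 ± 0.21 (edgeR adjusted p = 4.71e-05). Its 16-base hairpin is the same as that of H2AC25, but its counted exon holds the long extension after it.

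H1-2, a linker histone gene on chromosome 6 (ENSG00000187837, 26055968 to 26056699, minus strand), had 11, 10, 16 and 14 counts with NEL, against 42, 36, 24 and 31 with DMSO. These groups did not overlap, and the log2 fold change was -1.42 ± 0.24 (edgeR adjusted p = 0.000206). The other linker members were hardly seen in any group, H1-4 with 14 counts over the 16 libraries, H1-3 with 6, H1-5 with 2, and H1-1 and H1-6 with none.

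H2BC12, the H2B gene with the most reads (ENSG00000197903, chromosome 6, 27106073 to 27114619, minus strand), had 60, 51, 49 and 50 counts with NEL, against 85, 80, 78 and 73 with DMSO. Its log2 fold change was -0.64 ± 0.12 (edgeR adjusted p = 0.000504), a modest fall of 1.56-fold in non-overlapping groups. H2AC6, an H2A gene (ENSG00000180573, chromosome 6, 26124373 to 26139344, plus strand), had 20, 26, 22 and 30 counts with NEL, against 43, 32, 30 and 54 with DMSO. The highest NEL library equalled the lowest DMSO library in counts, but lay below it after scaling, and the log2 fold change was -0.75 ± 0.21 (edgeR adjusted p = 0.0105).

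H2AC11, another H2A gene, was the weakest call. It had 6, 4, 7 and 8 counts with NEL, against 11, 11, 10 and 11 with DMSO, and a log2 fold change of -0.82 ± 0.29 (edgeR adjusted p = 0.0425). Leaving out any of the 4 DMSO libraries, or NEL library 1 or 2, ended the call, with adjusted p-values between 0.0344 and 0.144 over the libraries left out in turn.

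The 3 members not called in KG1A were H2BC15, H2BC5 and H4C3. H2BC15, an H2B gene, had 10, 11, 14 and 23 counts with NEL, against 11, 8, 11 and 9 with DMSO, with overlapping groups (log2 fold change 0.52 ± 0.31, edgeR adjusted p = 0.185). H2BC5, also an H2B gene, had 17, 22, 22 and 32 counts with NEL, against 27, 15, 14 and 22 with DMSO, and overlapped widely as well.

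**Figure D2:**
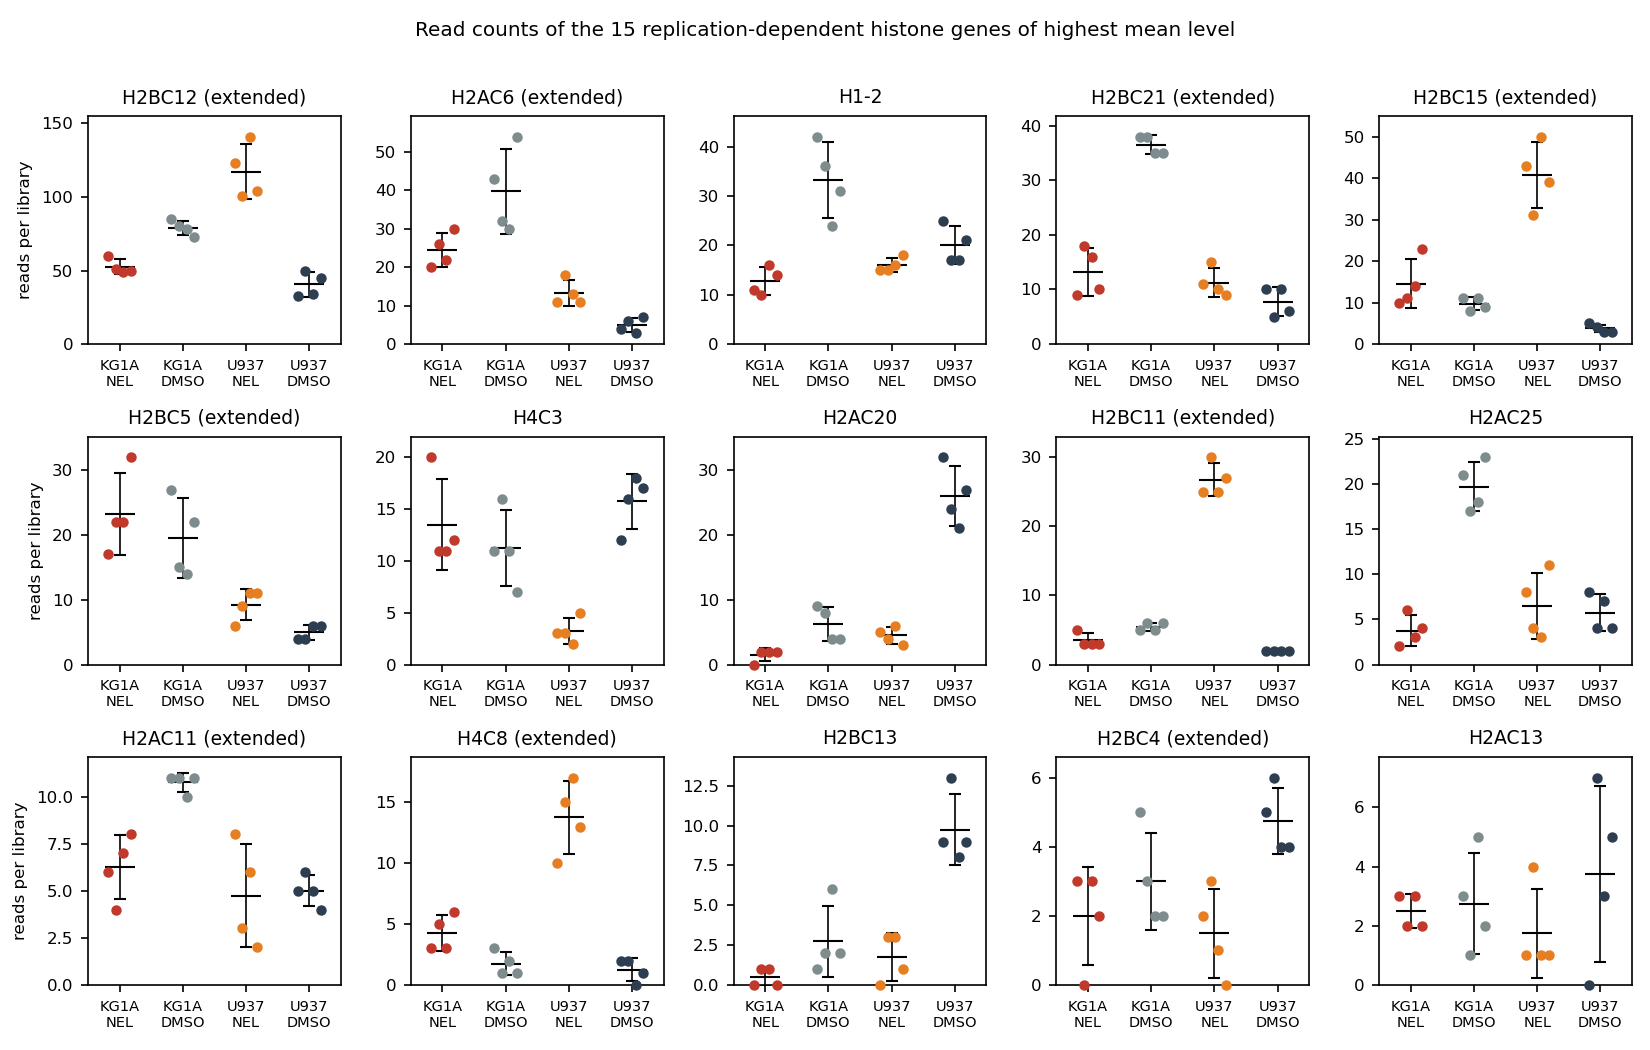
Reads per library (linear axis) of the 15 members of highest mean level in the 4 groups, with each point a library and the bar the mean ± SD of 4. H2BC11 stands at 25 to 30 reads in U937 with NEL and at 2 in every U937 DMSO library, whereas H2BC21 stands at 9 to 18 reads in KG1A with NEL and 35 to 38 in KG1A with DMSO.

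In U937 the members split into genes that rose and genes that fell. The 35 members together had 23.7, 22.2, 26.8 and 21.7 CPM in the NEL libraries, against 15.3, 15.9, 13.4 and 15.5 CPM in the DMSO libraries. The sums of the 2 groups did not overlap and gave a log2 ratio of 0.65, or 0.24 without H2BC12. The sum hides the split, because the longer members had 20.6 ± 2.48 CPM with NEL and 7.20 ± 0.79 CPM with DMSO, while the other 20 had 2.98 ± 0.28 CPM with NEL and 7.82 ± 0.66 CPM with DMSO (SD, n = 4 each).

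The edgeR test covered 8 members in U937, of which 5 rose, 2 fell and 1 was not called. Over all 14390 genes tested, 69.3% were called, 34.6% higher and 34.7% lower, so most genes moved in this comparison. The groups did not overlap for 7 of the 8, against 62.4% of all genes. All 5 that rose have an exon length of 800 bases or more, and both that fell are shorter. The split by length has exceptions among members under the filter. With no filter H2BC4, at 834 bases, was called lower (log2 fold change -1.65, edgeR adjusted p = 0.0337), as was H3C4, at 865 bases (-2.86, edgeR adjusted p = 0.0394). Only H2BC12 and H1-2 passed the filter in both groups, and the other 6 passed through the group in which they were higher.

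**Figure D3:**
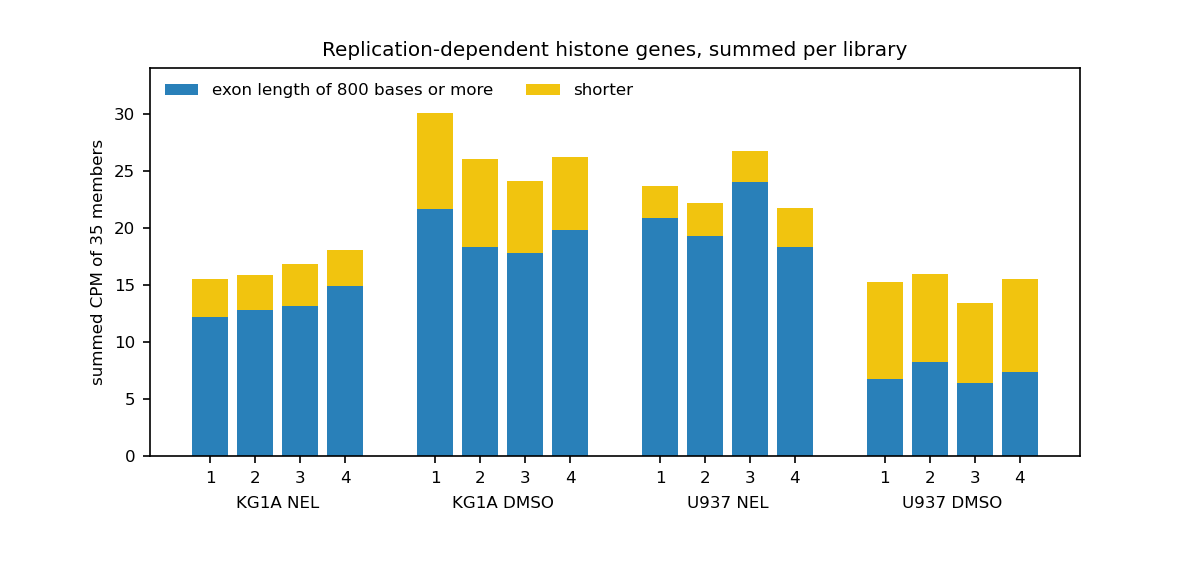
Summed CPM of the 35 members in each library, NEL left of DMSO within a line, split into members with an exon length of 800 bases or more (blue) and shorter ones (yellow). The longer members stand at 18.3 to 24.01 CPM in U937 with NEL and 6.43 to 8.23 CPM in U937 with DMSO, and the shorter ones at 2.78 to 3.39 CPM in U937 with NEL and 6.96 to 8.49 CPM in U937 with DMSO.

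H2BC11, an H2B gene on chromosome 6 (ENSG00000124635, 27093676 to 27100541, minus strand), gave the sharpest contrast. It had 25, 30, 25 and 27 counts with NEL, against 2 in each of the 4 DMSO libraries. Its log2 fold change was 3.61 ± 0.28 (SE, n = 4 per group, edgeR adjusted p = 5.46e-08), and it was 3.52 with odd-numbered libraries alone and 3.70 with even-numbered ones. With so few DMSO counts the size of the ratio is less certain than its direction.

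H2BC15 (ENSG00000233822, chromosome 6, 27806323 to 27823487, plus strand) had 43, 31, 50 and 39 counts with NEL, against 5, 4, 3 and 3 with DMSO. Every NEL library stood far above every DMSO library, and the log2 fold change was 3.35 ± 0.28 (edgeR adjusted p = 1.22e-07). Its deposited exon length of 4265 bases is the greatest of the members, and most of it lies outside the short coding part. H4C8, an H4 gene (ENSG00000158406, chromosome 6, 26281283 to 26285762, minus strand), had 10, 15, 17 and 13 counts with NEL, against 2, 2, 0 and 1 with DMSO, for a log2 fold change of 3.29 ± 0.46 (edgeR adjusted p = 2.05e-05).

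H2BC12 had 123, 101, 141 and 104 counts with NEL, against 33, 50, 34 and 45 with DMSO. The groups were well separated, and the log2 fold change was 1.48 ± 0.16 (edgeR adjusted p = 1.74e-06), and it was 1.93 with odd-numbered libraries alone and 1.06 with even-numbered ones. H2AC6 had 11, 18, 13 and 11 counts with NEL, against 4, 6, 3 and 7 with DMSO, for a log2 fold change of 1.34 ± 0.32 (edgeR adjusted p = 0.00220).

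The members that fell were H2AC20 and H4C3. H2AC20, an H2A gene on chromosome 1 (ENSG00000184260, 149858525 to 149858961, plus strand), had 5, 4, 6 and 3 counts with NEL, against 32, 24, 21 and 27 with DMSO. Its log2 fold change was -2.54 ± 0.28 (edgeR adjusted p = 1.79e-06). H4C3 (ENSG00000197061, chromosome 6, 26104104 to 26104518, plus strand) had 3, 3, 2 and 5 counts with NEL, against 12, 16, 18 and 17 with DMSO, for a log2 fold change of -2.28 ± 0.32 (edgeR adjusted p = 2.05e-05). Both are short genes without an annotated extension in the deposited table, and in both the groups were far apart.

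H1-2 was not called in U937. It had 15, 15, 16 and 18 counts with NEL, against 25, 17, 17 and 21 with DMSO, with 1 NEL library among the DMSO values and a log2 fold change of -0.37 ± 0.21 (edgeR adjusted p = 0.161). H2BC13, a short H2B gene, did not pass the filter. It had 0, 3, 3 and 1 counts with NEL, against 9, 13, 8 and 9 with DMSO, groups that did not overlap. H2AC21, a short H2A gene beside H2AC20, had 10 counts in all, and every one was in a U937 DMSO library, at 3, 1, 3 and 3.

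The members that did not pass the filter were followed by their counts. H4C8 had 3, 5, 3 and 6 counts in KG1A with NEL, against 3, 1, 2 and 1 with DMSO, touching at 3. H2AC20 had 0, 2, 2 and 2 counts in KG1A with NEL, against 9, 8, 4 and 4 with DMSO, so it stood lower with NEL in this line too. Both pairs of groups rest on few reads.

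H2BC5 had 6, 9, 11 and 11 counts in U937 with NEL, against 4, 4, 6 and 6 with DMSO, and H2AC25 had 8, 4, 3 and 11, against 8, 4, 7 and 4. H2BC4, an H2B gene that faces H2AC6, had 2, 3, 1 and 0 counts in U937 with NEL, against 5, 6, 4 and 4 with DMSO, and 3, 0, 3 and 2 in KG1A with NEL, against 5, 3, 2 and 2 with DMSO. H2AC13 had 3, 2, 3 and 2 counts in KG1A with NEL, against 3, 1, 5 and 2 with DMSO. Of these, only H2BC4 in U937 had groups that did not overlap.

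With no filter, 24 members could be fitted in KG1A and 25 in U937. In U937 11 were then called, 5 higher and 6 lower, against 46.1% called of all genes fitted, and H2BC13, H2BC4, H3C4 and H2AC21 were the additions, all lower. In KG1A 6 were called, all lower, against 30.0% of all, with H2AC20 in place of H2AC11. H3C4, an H3 gene, had 21 counts in all, H3C12, also an H3 gene, 18 and H4C11, an H4 gene, 9. H2BC18 had 4 counts, H2BC26 and H3-4 had 3 each, and H2AC1, H2AC7, H2BC1, H3C13, H3C14, H3C15 and HIST2H2AA3 had none, like H1-1 and H1-6. The counts of 0 of H3C13, H3C14, H3C15, HIST2H2AA3 and H2AC7 are uncertain, since most or all of their transcript sequence recurs in other gene IDs. H2AC7 also lies within the span of H3C4 on the same strand.

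**Figure D4:**
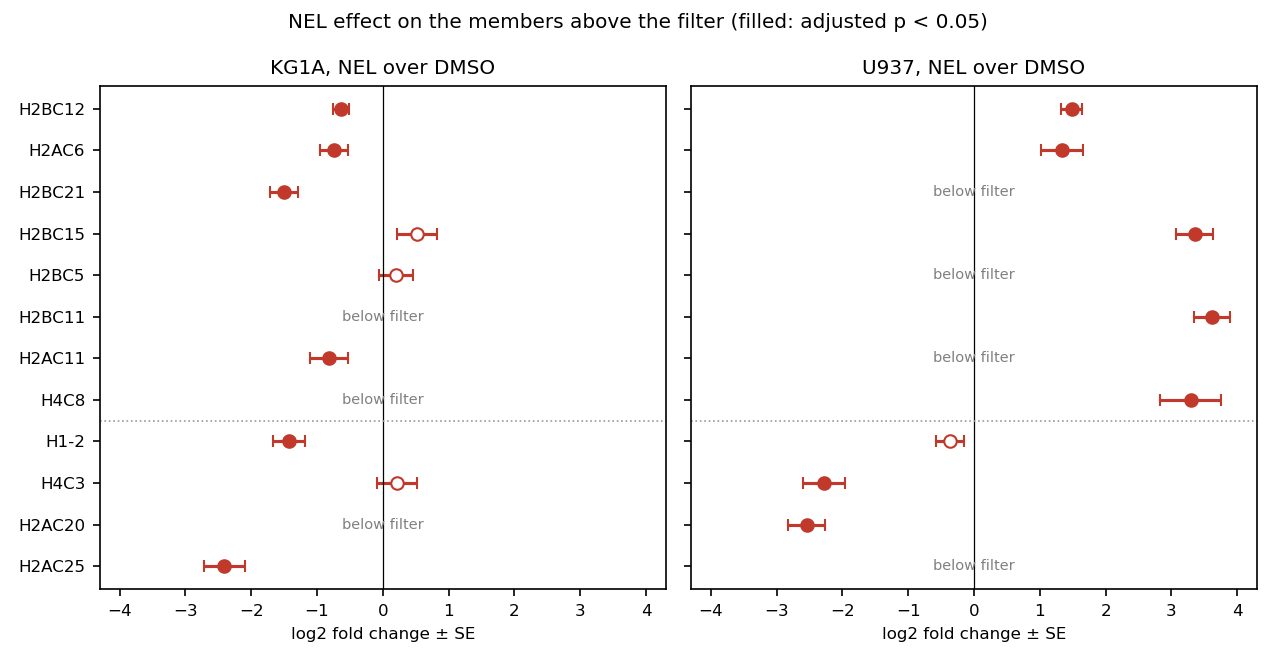
Log2 fold change of NEL over DMSO with its SE for members that passed the filter in either line, in KG1A (left panel) and U937 (right panel), with filled points called at an adjusted p under 0.05 and the dotted line dividing longer from shorter members. H2BC12 and H2AC6 lie left of 0 in KG1A and right of 0 in U937, and H4C3 lies near 0 in KG1A and at -2.28 in U937.

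Whether NEL acted differently on the same member in the 2 lines was tested as an interaction over the 16 libraries. Of 11 members tested, 7 had a higher log2 fold change in U937 than in KG1A, 1 had a lower one and 3 were not called. Over all 16117 genes tested 47.4% were called, 21.1% higher and 26.3% lower. In 9 of the 11 members at least 1 of the 4 groups lay wholly under the filter, and they passed through the groups where they are high, so their call was partly set by passing. Only H2BC12 and H1-2 reached the filter in all 4 groups. With no filter 26 members could be fitted, and 7 were called higher and 1 lower, against 29.2% called of all genes fitted. For H2BC12 the difference (U937 minus KG1A) was 2.11 ± 0.20 (SE, n = 4 per group, edgeR adjusted p = 2.06e-08) and for H2AC6 it was 2.07 ± 0.42 (edgeR adjusted p = 0.000281). These 2 genes were called lower in KG1A and higher in U937.

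The largest difference among the 11 was that of H2BC11, at 4.29 ± 0.45 (edgeR adjusted p = 6.53e-08). In KG1A this gene had 5, 3, 3 and 3 counts with NEL, against 5, 6, 5 and 6 with DMSO, too few to pass the filter there. H2BC15 differed by 2.82 ± 0.46, H2AC25 by 2.53 ± 0.55 and H2BC21 by 1.98 ± 0.38, with edgeR adjusted p-values of 2.82e-05, 0.000615 and 0.000160. H2BC21 had 11, 15, 10 and 9 counts in U937 with NEL, against 10, 5, 10 and 6 with DMSO, overlapping values in the line where the gene is low.

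H4C3 was the one member with a lower log2 fold change in U937 than in KG1A, by -2.50 ± 0.46 (edgeR adjusted p = 0.000111). In KG1A it had 20, 11, 11 and 12 counts with NEL, against 11, 16, 11 and 7 with DMSO, so its groups overlapped there. H1-2 differed by 1.05 ± 0.32 (edgeR adjusted p = 0.0105). The odd-numbered libraries alone did not call this difference, with 0.84 and an adjusted p of 0.178. H2BC5, H2AC20 and H2AC11 were not called.

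Without NEL the lines also differed. Of 9 members tested between DMSO-treated U937 and DMSO-treated KG1A, 7 were lower in U937, H2AC20 was higher and H4C3 was not called. H2AC6, H2BC21, H2BC5, H2AC25 and H2AC11 passed the filter only through KG1A, and H2AC20 only through U937, so the direction of these 6 was partly set by passing. At 86.4% called among all 15181 genes (43.0% higher and 43.4% lower), most genes differed between the lines. The groups did not overlap for 7 of the 9, against 81.6% of all genes. With no filter 25 members could be fitted and 14 were called, 4 higher and 10 lower in U937, against 64.1% called of all. The numbers called in either direction and those without overlap do not set the members apart from all genes. H2AC6 differed most, with 4, 6, 3 and 7 counts in U937, against 43, 32, 30 and 54 in KG1A, a log2 fold change of -3.10 ± 0.30 (edgeR adjusted p = 4.72e-08). H2BC21 (-2.36 ± 0.23), H2BC5 (-2.08 ± 0.32) and H2AC25 (-1.90 ± 0.28) followed, with edgeR adjusted p-values of 4.77e-08, 1.35e-05 and 8.00e-06.

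H2AC20 had 32, 24, 21 and 27 counts in U937 with DMSO, against 9, 8, 4 and 4 in KG1A with DMSO, for a log2 fold change of 1.89 ± 0.29 (edgeR adjusted p = 1.08e-05). The share of member counts on the longer genes was lowest in U937 with DMSO. It was 79.9 ± 2.02% in KG1A with NEL, 73.0 ± 2.23% in KG1A with DMSO, 87.2 ± 2.19% in U937 with NEL and 47.9 ± 2.96% in U937 with DMSO (SD, n = 4 each). H4C16, the only member on chromosome 12, had 13 counts, all of them in KG1A, 1, 4, 3 and 0 with NEL and 1, 1, 1 and 2 with DMSO.

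Several members face each other across a short stretch of DNA, and the 2 sides of such a pair did not always give the same picture. H2BC11 and H2AC11 start 290 bases apart and run in opposite directions. In U937, H2BC11 rose as given above, while H2AC11 had 8, 3, 6 and 2 counts with NEL, against 5, 6, 5 and 4 with DMSO. H2BC21 and H2AC20 start 292 bases apart, and in U937 H2AC20 fell, while H2BC21 overlapped between its groups. The difference between the sides of a pair was not tested. H2BC13 and H2AC13, 189 bases apart, were both low, and H2AC13 had 1, 4, 1 and 1 counts in U937 with NEL, against 0, 7, 3 and 5 with DMSO.

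The 2 intervals are shown because each lies between 2 genes whose counts gave different pictures. They are the 250 bases before the start of H2AC20 (chr1:149886668-149886917) and of H2AC11 (chr6:27132793-27133042), from RefSeq on GRCh38.p14, plus strand. Capitals mark 3 motifs searched on both strands, the octamer ATTTGCAT bound by POU2F1, the TATA box TATAAA and the CCAAT box CCAAT. In H2AC11 a TATA box match on one strand overlaps one on the other.
H2AC20: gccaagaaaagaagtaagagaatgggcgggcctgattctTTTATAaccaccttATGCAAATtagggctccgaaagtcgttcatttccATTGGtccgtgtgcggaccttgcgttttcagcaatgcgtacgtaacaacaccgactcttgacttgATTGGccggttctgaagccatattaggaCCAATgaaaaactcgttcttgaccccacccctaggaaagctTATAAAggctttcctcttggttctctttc
H2AC11: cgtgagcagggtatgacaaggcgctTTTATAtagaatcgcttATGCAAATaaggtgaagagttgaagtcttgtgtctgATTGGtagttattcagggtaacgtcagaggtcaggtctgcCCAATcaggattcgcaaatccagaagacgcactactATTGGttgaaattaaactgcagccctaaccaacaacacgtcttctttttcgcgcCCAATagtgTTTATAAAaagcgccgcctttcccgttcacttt
In both, the octamer and a TATA box match sit near the far end, on the strand of the H2B gene, and another TATA box match sits near the start of the H2A gene. Of the 35 members, 32 matched a promoter entry, and the octamer was present in 13 of these, against 1.66% of 27305 promoters of the same length. A TATA box match was present in 22 of the 32, against 11.1% of all, and a CCAAT match in 29, against 33.0%. These matches are a description of the letters.

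How far the reads of a member can be told from those of a near copy or an overlapping gene varied. The share of 50-base windows of the reference transcripts that recur in another gene was 74.1% for H2BC12, whose GENCODE 29 model holds the coding part only, 62.3% for H2AC13 and 30.5% for H2AC20. It was 10.9% for H2BC13, 8.11% for H2BC21, 4.65% for H2BC11, 3.52% for H2BC15 and 0.42% for H2AC6, and no window recurred for H1-2, H4C3 and H4C8. How reads matching several genes were counted is not given in the sources used here, so values of members with a large share are less certain. Among members with few counts, every window of H3C4 recurred, and the share was 81.2% for H4C11 and 40.9% for H3C12. Of the members with no count, every window recurred for H3C14, H3C15 and HIST2H2AA3, and the share was 98.0% for H2AC7 and 80.4% for H3C13, so a count of 0 for these 5 does not show that they gave no reads. H2BC12 also overlaps an unnamed gene ID on the other strand, and whether the counting used strand is not given in these sources. In all, 8 members overlap another gene ID, 4 of them on the same strand. Those 4 are H3C4 and H2AC7, which overlap each other, and H3C12 and H2BC18, which overlap unnamed IDs. How reads in such overlaps were counted is not given either, so the counts of these members are less certain.

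Genes of the histone pathway were described from lists. Over all genes tested, 23.6% rose and 23.6% fell in KG1A, and 34.6% rose and 34.7% fell in U937. Those of histone 3′ end processing moved mostly down in U937. In KG1A 5 of the 13 rose and 4 fell, with a median log2 fold change of 0.05, against -0.00446 over all genes tested. In U937 2 rose and 11 fell, with a median of -0.37, against -0.00436 over all. In the interaction 9 of the 13 were called lower in U937 and none higher, with 1 higher at an unadjusted p under 0.05 and 1 in the DESeq2 test. Over all 16117 genes tested in the interaction, 26.3% were called lower and 21.1% higher. The median difference was -0.57 for the list, against -0.03 over all.

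SLBP averaged 280 ± 11.5 CPM in KG1A with NEL and 181 ± 4.95 CPM in KG1A with DMSO (SD, n = 4 each). It rose there by a log2 fold change of 0.63 ± 0.04 (edgeR adjusted p = 1.81e-08). In U937 SLBP averaged 217 ± 6.03 CPM with NEL and 234 ± 11.95 CPM with DMSO, a log2 fold change of -0.10 ± 0.04 (edgeR adjusted p = 0.0486) whose call was lost with upper quartile factors (adjusted p = 0.339). The difference between the lines was -0.74 ± 0.06 (edgeR adjusted p = 1.06e-09).

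LSM10 averaged 23.4 ± 2.34 CPM in U937 with NEL and 34.7 ± 0.23 CPM in U937 with DMSO, with a log2 fold change of -0.57 ± 0.07 (edgeR adjusted p = 7.00e-06), and was not called in KG1A (-0.15 ± 0.10). ZNF473, a zinc finger protein of the cleavage machinery, rose in KG1A (0.58 ± 0.06) and fell in U937 (-0.29 ± 0.05). SYMPK, the scaffold of the cleavage complex, fell in KG1A (-0.34 ± 0.04). In U937 the calls of smallest p were SRRT (-0.78 ± 0.04), which links the cap-binding complex to processing, NCBP2 (-0.99 ± 0.07), a subunit of that complex, and CLP1 (-1.02 ± 0.10), an RNA kinase of the general cleavage machinery.

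**Figure D5:**
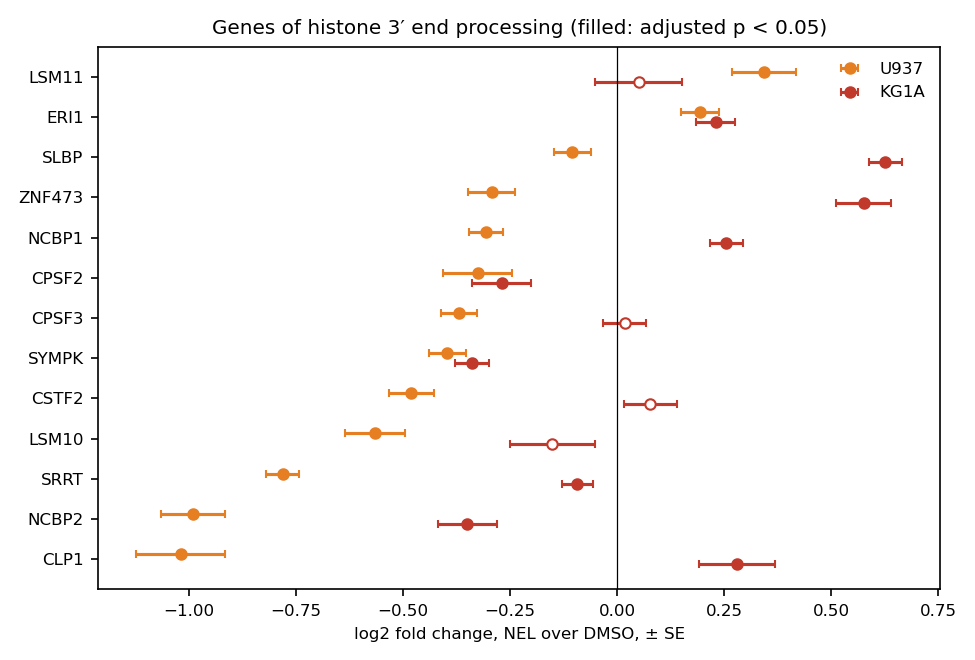
Log2 fold change of NEL over DMSO with its SE for the 13 genes of histone 3′ end processing in U937 (orange) and KG1A (red), with filled points called at an adjusted p under 0.05. SLBP lies at 0.63 in KG1A and -0.10 in U937, and 11 of the 13 genes lie left of 0 in U937.

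Of the 7 genes listed for transcription and cyclin E, 5 rose and 1 fell in KG1A, where 23.6% of all genes rose, with a median log2 fold change of 0.52, against -0.00446 over all. In U937 6 rose and 1 fell, where 34.6% of all genes rose, with a median of 0.31, against -0.00436 over all. CCNE2, a cyclin E gene, rose by 1.60 ± 0.05 in KG1A and 1.08 ± 0.04 in U937. CCNE1, the other cyclin E gene, rose by 1.48 ± 0.05 in KG1A and 0.35 ± 0.08 in U937, and CASP8AP2, a cofactor of histone gene transcription, by 0.52 ± 0.05 in KG1A. CDK2, the kinase partner of cyclin E, rose by 0.37 ± 0.06 in U937. NPAT averaged 143 ± 3.63 CPM in KG1A with NEL and 118 ± 2.74 CPM in KG1A with DMSO, a rise of 0.27 ± 0.04 (edgeR adjusted p = 3.64e-05), and had a log2 fold change of -0.15 ± 0.06 in U937 (edgeR adjusted p = 0.0272), a call lost with upper quartile factors (adjusted p = 0.146).

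Of 10 general polyadenylation genes tested, 1 rose and 5 fell in KG1A, with a median log2 fold change of -0.14, and 1 rose and 7 fell in U937, with a median of -0.35. The share called over all genes was 47.2% in KG1A and 69.3% in U937, and 23.6% and 34.7% of all genes fell. PCF11 (-0.49 ± 0.05), WDR33 (-0.40 ± 0.05) and CPSF6 (-0.30 ± 0.04), all parts of the cleavage and polyadenylation machinery, had the smallest p-values in KG1A. In U937 PAPOLA, the poly(A) polymerase, fell by 0.65 ± 0.04 on the log2 scale, with WDR33 at -0.36 ± 0.04 and CPSF6 at -0.33 ± 0.05.

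Of 6 genes of histone message decay, none rose and 2 fell in KG1A, with a median of -0.04 (0.03 when scaled by library totals only), and 2 rose and 3 fell in U937, with a median of -0.15. With 47.2% of all genes called in KG1A and 69.3% in U937, these counts do not set the list apart. In KG1A 1 further gene rose at an unadjusted p under 0.05, and none in the DESeq2 test. The calls in KG1A were TUT7, a uridylyl transferase (-0.21 ± 0.05), and UPF1, an RNA helicase (-0.11 ± 0.04). In U937 ATR, the replication stress kinase, fell by 0.63 ± 0.05 on the log2 scale and UPF1 had -0.48 ± 0.04, while TUT4, also a uridylyl transferase, rose by 0.31 ± 0.04.

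Histone chaperones carry new histones to DNA. In KG1A 7 of the 11 rose and 1 fell, with a median of 0.40, and in U937 5 rose and 4 fell, with a median of 0.07. Over all genes 47.2% were called in KG1A, with 23.6% higher, and 69.3% in U937, with 34.6% higher. ASF1B rose by 1.04 ± 0.05 and CHAF1B, a subunit of the assembly factor CAF-1, by 0.86 ± 0.05 in KG1A, with MMS22L at 0.55 ± 0.05. In U937 MMS22L rose by 0.59 ± 0.05 and RBBP4 by 0.30 ± 0.04, and TONSL, the partner of MMS22L, fell by 0.39 ± 0.05.

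Replication-independent histones have messages that are polyadenylated as a rule. Of 9 tested in either line, 7 fell in KG1A, with a median log2 fold change of -0.23, and 7 fell in U937, with a median of -0.36. Over all genes 23.6% fell in KG1A and 34.7% in U937. None rose in the edgeR test in KG1A, also at an unadjusted p under 0.05 and with DESeq2, and in U937 1 rose at an unadjusted p under 0.05 and 1 with DESeq2. H1-10, a linker histone variant, averaged 55.4 ± 2.22 CPM in KG1A with NEL and 134 ± 11.6 CPM in KG1A with DMSO, and 42.7 ± 3.01 CPM in U937 with NEL and 100.2 ± 6.55 CPM in U937 with DMSO. Its log2 fold changes were -1.28 ± 0.06 in KG1A and -1.23 ± 0.06 in U937. H2AX had log2 fold changes of -0.33 ± 0.04 in KG1A and -0.53 ± 0.04 in U937, and MACROH2A1 had -0.34 ± 0.03 in KG1A, all called.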

How the data were processed

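Stranded libraries of polyadenylated RNA were made from 16 samples, per the labels' protocols. Per the submitters' processing notes, reads were processed on hg19 (GRCh37) with TopHat2, HTSeq 0.11.2 and bcl2fastq 2.18.0.12. Neither the annotation nor the strand setting is given in the sources used. The authors deposited raw read counts per gene and RPKM values. The deposited RPKM equalled count per exon length and library total (largest relative deviation 1.86e-07) and served for levels per length and alternatives. No column was left unmapped.

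Symbols came from a table of gene names, which matched 32562 IDs. All genes were fitted in R 4.3.3 with edgeR 4.0.16 (quasi-likelihood F-test, TMM factors, filter at a minimum count of 10 and total of 15). Benjamini-Hochberg adjusted p-values under 0.05 were called. The comparisons were NEL against DMSO in each line, their interaction over all libraries, and U937 against KG1A with DMSO. SE is the log2 fold change over the square root of F. The test was also run on simulated data. Figures used Python 3.11.15 and matplotlib 3.10.9.

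The members, the lists and the alternatives were chosen with earlier results of these data known. Named in full were the 15 members of highest mean CPM and, in each comparison, the 4 largest called changes each way. Each list gave its 3 called genes of smallest p, and SLBP, NPAT and LSM10 were always named. Single values of some genes of the lists are not reported here. H2BC4, H2BC13 and H2AC13 are among the 15, while H2AC21 and H4C16 were named after their values were seen. A further 33 unnamed IDs within the chromosome 6 span of the members, with 687 counts in all, were not analysed here.

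Alternatives were other size factors, no or a stricter filter, the DESeq2 1.42.0 test, limma 3.58.1 (voom, and trend on log2(RPKM + 0.5) or log2(RPKM + 0.1)), each library left out, the replicate number as a block, and the odd-numbered or even-numbered libraries alone, sets found in the data since the labels name no batch. Deviations of same-numbered NEL and DMSO libraries from their group means correlated at 0.289 to 0.368 in KG1A and 0.316 to 0.364 in U937, all over 0.1, so the block was fitted. Differently numbered libraries of the same odd or even set correlated about as much, at 0.285 to 0.330 in KG1A and 0.300 to 0.401 in U937, and 3 of 4 and 2 of 4 libraries matched their own number best. The correlations therefore follow the sets and do not show pairs within them. No 2 libraries agreed within sampling noise, with a chi-square per degree of freedom of 1.26 to 1.98 within a set and 3.88 to 8.47 between sets. Intervals and floors cover counting error only.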

Additional observations from a re-analysis of the deposited data

Results flagged for a closer look

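A library that stood far from the other 3 of its group was found in 5 of the 72 groups of 4 examined, those of the 15 members described in full and of the 3 summed levels (all, longer and other members), by Dixon's test at the 95% level. Chance gives about 1 in 20. In KG1A with NEL, library 1 was the highest for H2BC12 (5.41 CPM), for H4C3 (1.80 CPM) and for H2BC11 (0.451 CPM), and it was the lowest for H2AC20, with no count (0 CPM). In U937 with NEL, library 2 was the highest for H2AC13 (0.340 CPM). Without KG1A NEL library 1 the call of H2BC12 was kept, and H4C3 was not called with or without it.

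Differences of the NEL effect between the lines (U937 minus KG1A) that passed the edgeR interaction test were 4.29 for H2BC11, 2.82 for H2BC15, 2.53 for H2AC25, 2.11 for H2BC12, 2.07 for H2AC6, 1.98 for H2BC21, 1.05 for H1-2 and -2.50 for H4C3, on the log2 scale. For H2BC12 and H2AC6 both lines passed their own test, in opposite directions.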

How the results depend on the processing

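Calls of members numbered 6 in KG1A, 7 in U937, 8 in the interaction and 8 between the DMSO-treated lines. With each library left out in turn they ranged from 5 to 6, 7 to 7, 8 to 9 and 8 to 8. With no filter 11 were called in U937 and 14 between the lines, since more members could be fitted. The log2 ratio of the summed members in U937 was 0.65, and 0.243 without H2BC12, 0.163 on summed RPKM, 0.816 in odd-numbered and 0.483 in even-numbered libraries, and 0.585 to 0.690 with each library left out. With the replicate number as a block, although the numbers could not be told from the odd and even sets as pairs, 6, 7, 8 and 8 members were called, and no member's call changed.

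Of 949 alternatives for 37 results on single members, 928 kept direction and call, 15 lost the call, 1 gained it and 5 turned the sign of an uncalled value. The turned values were -0.116 for H2BC5 in KG1A (odd-numbered libraries), -0.0486 for H4C3 in KG1A (even-numbered), -0.0378 for H4C3 without KG1A NEL library 1 (0.425 at the other end of the range over libraries left out), 0.315 for H2AC20 (odd-numbered) and -0.110 for H2AC11 (even-numbered) in the interaction. H2AC11 in KG1A accounted for 12 of the lost calls. Causes were not tested. Most members never reached 10 counts in a library, which limits what could be tested.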
